A study of Drosophila melanogaster with 3 samples.

Results

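The gene sbb (scribbler, also called brakeless or master of thickveins) carried 30 of the 6578 thresholded peaks of a ChIP-seq study of the zinc finger factor Squeeze (sqz) in Drosophila melanogaster embryos. ChIP-seq sequences the DNA that is recovered with a chosen protein. A peak was assigned to sbb when its summit, the highest point of the peak, lay in the gene body or within 10 kb of it. The gene was chosen by the number of thresholded peaks in its 100 kb window, so its number of peaks is a description and was not tested. The same interval held 84 of the 30000 peaks called on the pooled libraries, and 73, 84 and 82 of the 30000 peaks of replicates 1, 2 and 3, a mean of 79.7 ± 5.86 (SD, n = 3).

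The data formed 1 group of 3 biological replicates, all whole embryos aged 0 to 16 h with the sexes pooled. All came from 1 transgenic line in which sqz is expressed with GFP at its C-terminus, so no other genotype, age or treatment was available for comparison. Per the labels, chromatin was sonicated to 200 to 800 bp. The labels conflict, since a description field says input control where the antibody field names sqz; all 3 were treated as ChIP libraries. Read depth is unknown, and an embryo of this age range mixes many cell types that the peaks cannot tell apart.

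The product of sbb is a nuclear protein that acts as a transcriptional corepressor in Drosophila. In the embryo it works with the orphan nuclear receptor Tailless and the corepressor Atrophin. In the eye disc it represses runt and so sets where photoreceptor axons stop, in the wing disc it lowers expression of the BMP receptor gene tkv, and the name scribbler comes from the turning of mutant larvae. Squeeze itself is known for its part in specifying Apterous cluster neurons of the nerve cord.

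The gene sbb (FBgn0285917) lies on 2R from 18278198 to 18357296 (dm6), minus strand, a length of 79.1 kb. Its 7 annotated transcripts start at only 2 transcription start sites (TSSs), a distal one at 18357296 and an internal one at 18288761, 68.5 kb further downstream. Between them, the intron from 18306136 to 18355499 alone spans 49.4 kb, and several small genes lie inside the sbb introns. Positions along the gene are given below as kb downstream of the distal TSS.

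Most of the thresholded summits lay in that long first intron, which made up 62.4% of the gene body and held 24 of the 30 summits, 4.86 per 10 kb. The second intron, 16.2 kb long, held 2 summits, or 1.24 per 10 kb. Noncoding exons held 3, the upstream flank 1, and coding exons and the 3' flank held 0. The 24 summits of the first intron had signal values from 168 to 1723 with a median of 336; the signal value is the peak strength as the authors' caller gave it, on a scale that is not stated, and is used here only to rank peaks within a list.

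**Figure D1:**
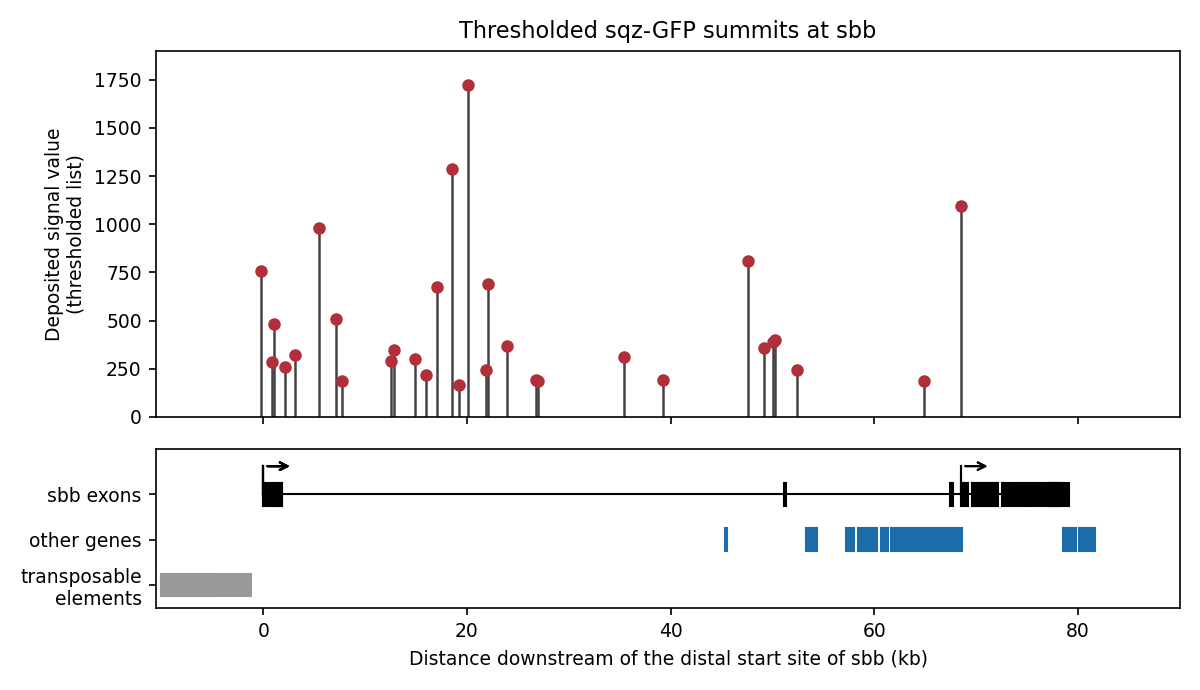
Signal value of each of the 30 thresholded summits (upper panel) against distance in kb downstream of the distal TSS of sbb, with sbb exons, both start sites (arrows), other annotated genes and annotated transposable elements in the lower panel. Summits crowd the part of the first intron nearest the distal TSS, the strongest stands at 20.1 kb with 1723, and a strong isolated summit of 1097 stands at the internal TSS.

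The strongest summit of the locus was at 18337191 on 2R, 20.1 kb into the gene and within the first intron. Its signal value of 1723 put it at rank 30 of all thresholded peaks, and it ranked 54, 29 and 32 in replicates 1, 2 and 3, a mean rank of 38.3 ± 13.7 (SD, n = 3). No annotated TSS lay nearer to it than the distal start site of sbb.

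The next strongest, at 18338716 (18.6 kb, signal 1286, rank 79), lay in the same intron. It ranked 831, 70 and 36 in replicates 1, 2 and 3, so replicates 2 and 3 placed it far higher than replicate 1. The interval around it was 1180 bp wide, the widest at the locus, and also held the weakest of the 30 summits, at 18338092 (19.2 kb, signal 168, rank 6450). That weakest summit ranked 15824, 12922 and 2021 in the 3 libraries, and replicate 3 was the only library that had it among its strongest 6578 peaks.

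The third strongest, at 18288760 (signal 1097, rank 140), fell 1 bp downstream of the internal TSS, from which the transcripts sbb-RC and sbb-RH start. It ranked 228, 132 and 115 in replicates 1, 2 and 3, a mean rank of 158 ± 60.9 (SD, n = 3), and the 3 libraries lay close together. CG14502, a gene nested in sbb on the plus strand, has an annotated TSS 64 bp upstream of the same summit, so the peak cannot be given to 1 of the 2 genes.

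The next pair by strength was again intronic. The summit at 18351856 (5.44 kb, signal 981, rank 186) ranked 423, 137 and 186 in replicates 1, 2 and 3. The summit at 18309734 (47.6 kb, signal 810, rank 303) ranked 597, 220 and 398, and its nearest start site was that of Tango8, a small gene within the first intron, 2088 bp away. In both cases replicate 1 gave the lowest standing of the 3.

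At the distal promoter the summit was at 18357504, 208 bp upstream of the start site, with a signal of 758 and a rank of 364. It ranked 213, 390 and 635 in replicates 1, 2 and 3, a mean rank of 413 ± 212 (SD, n = 3), and here replicate 1 gave the highest standing. Another pair lay in the exon just downstream, at 829 bp (signal 287) and 1028 bp (signal 483) from the TSS, 199 bp apart inside 1 interval.

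Only 3 of the 30 summits (10%, 95% Wilson interval 3.46 to 25.6) lay within 500 bp of a TSS of any protein-coding gene, against 37.9% of all thresholded summits. They were the summits at the distal and internal start sites of sbb and a weak one at 18292409 (64.9 kb, signal 188, rank 5509), 76 bp downstream of a TSS of CG14502. That weak summit ranked 6334 and 3632 in replicates 1 and 3 and had no counterpart within 100 bp in replicate 2. CG14505, the other nested gene nearest to a summit, had its closest one 902 bp upstream (18304879, signal 241). The median distance from a summit to the nearest TSS was 7470 bp at sbb and 1239 bp over all thresholded peaks. Most sbb summits lay in the long first intron, where the only annotated protein-coding TSS is that of the small gene Tango8. The distance at other long genes is not given, so it is not read as particular to sbb.

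The first 30 kb of the gene were the densest, in every library. In the 3 bins of 10 kb downstream of the distal TSS, the thresholded list held 7, 7 and 6 summits, and no later bin held more than 3. Among the strongest 6578 peaks of each library, a number equal to that of the thresholded list, the bin from 10 to 20 kb held 8, 10 and 6 summits in replicates 1, 2 and 3 (mean 8 ± 2, SD, n = 3). The bin from 20 to 30 kb held 5 in each library, and the bin from 30 to 40 kb held 1, 3 and 3 (mean 2.33 ± 1.15, SD, n = 3). The gene was chosen by peaks of these same libraries, so the bins are a description. The bin from 0 to 10 kb varied most, with 4, 9 and 6.

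**Figure D2:**
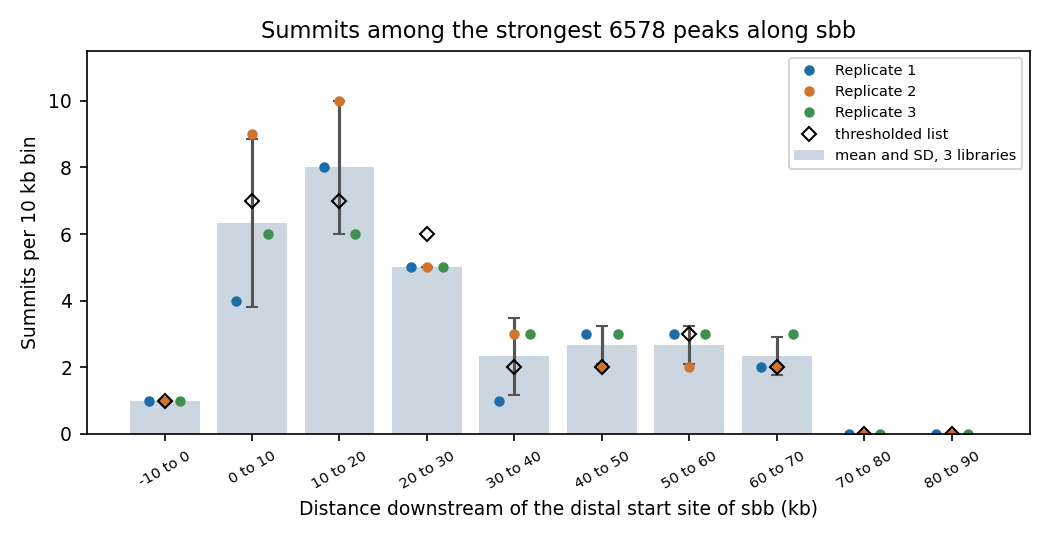
Number of summits per 10 kb bin along sbb, from 10 kb upstream of the distal TSS (left) to the end of the interval, among the strongest 6578 peaks of each library (dots), their mean and SD (bars), and in the thresholded list (diamonds). Counts are highest from 0 to 30 kb and are 0 in all 3 libraries from 70 kb on.

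The 3' end of the gene, where 88.9% of its coding bases lie, had no strong peak. From 70 to 80 kb the thresholded list, the pooled list and the strongest peaks of each library all held 0 summits. The longest gap between neighbouring thresholded summits, 12470 bp, ran from 18292409 to 18304879 across a row of small nested genes. Upstream, the flank beyond the promoter was also empty: past 500 bp from the distal TSS, 0 summits were listed in the thresholded, pooled and 3 library lists. Annotated transposable elements (jockey and roo) cover 88.3% of that 10 kb flank. Such elements make up 5.93% of the 6 chromosome sequences and held 0.383% of the pooled summits; how far reads can be placed in them was not tested. The nearest thresholded summit further out was 17.0 kb upstream of sbb (signal 553), beyond the elements, and the nearest on the 3' side was 31.9 kb away (signal 194).

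Neighbouring summits were closely spaced. The 29 gaps had a median of 1481 bp, from 199 to 12470 bp, while the 6572 gaps over all thresholded peaks had a median of 4846 bp. Of the sbb gaps, 10 (34.5%) were under 1 kb and 5 (17.2%) under 500 bp, against 17.2% and 10.3% of all gaps. Because the locus was chosen for a high density of peaks, short gaps follow from the choice. Chains of summits under 500 bp apart reduced the 30 summits to 25, and chains under 1 kb to 20.

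Summits at sbb often shared a called interval. In 5 cases an interval held 2 summits, so 10 of the 30 summits (33.3%, 19.2 to 51.2) shared an interval, against 166 of all 6578 (2.52%). The 100 kb window of sbb held 10 of those 166, the highest of all windows, and the window of sqz on 3R held 9. An interval with 2 summits raises the count by which sbb was chosen, so nothing is read from these differences. Summits that share come in pairs, and the Wilson interval treats the 2 of a pair as independent. Sharing was commoner among strong peaks: of the strongest 1645 thresholded peaks 6.5% shared an interval, and of the 12 sbb summits among them 5 did. In the following 1644, 1645 and 1644 peaks by signal, 2.07%, 1.03% and 0.487% shared an interval. Of the sbb summits there, 3 of 8, 1 of 4 and 1 of 6 did. Close summits inside 1 interval need not be separate sites.

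The commonest width in the thresholded list was 456 bp, and 8 of the 30 sbb peaks (26.7%, 14.2 to 44.4) had it, against 66.8% of all. Widths at sbb ran from 183 to 1180 bp. Here too the signal moved with the width: 85.3% of the strongest 1645 peaks had another width, as did all 12 sbb peaks among them. In the next 1644 peaks by signal, 34.1% did, and 7 of the 8 sbb peaks there. In the following 1645 and 1644 peaks, 9.73% and 3.83% did, and 1 of 4 and 2 of 6 sbb peaks.

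By strength, sbb summits stood above the middle of the thresholded list. Their median signal was 336 against 262 over all thresholded peaks, and their median rank stood at the top 32.5%, with the summits running from the top 0.456% to the top 98.1%. Among the strongest 3289 peaks were 20 of the 30, and 8 (26.7%) were among the strongest 657. In the pooled list, 30 of the 84 sbb peaks (35.7%, 26.3 to 46.4) passed into the thresholded set, against 21.9% of all pooled peaks; the rule used these peaks, so nothing is read from the difference. Just inside the threshold lay the weakest member (signal 168) and just outside lay the peak at 18302922 (54.4 kb, signal 163, pooled rank 6668), which ranked 4773, 15404 and 8593 in replicates 1, 2 and 3.

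**Figure D3:**
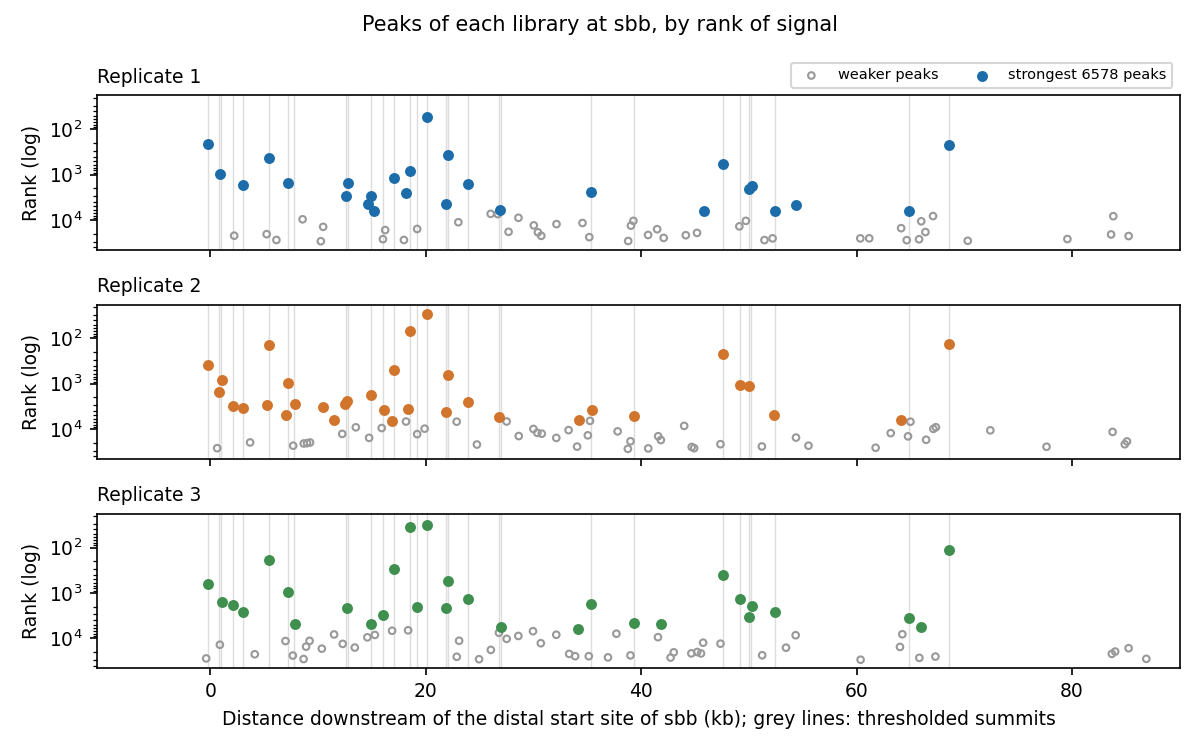
Rank by signal (log axis, strongest at the top) of each peak at sbb in replicates 1, 2 and 3 against distance in kb downstream of the distal TSS; filled points are among the library's strongest 6578 peaks, open points are weaker, and grey lines mark thresholded summits. The summits at 20.1 kb and at the internal TSS (68.5 kb) stand high in all 3 libraries, and weaker peaks fill the introns.

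By the strongest peaks of the libraries, the share of sbb summits met was near that of the whole thresholded list. A summit was counted as met when 1 of the strongest 6578 peaks of a library had its summit within 100 bp. Of the 30, 16 (53.3%, 36.1 to 69.8) were met in all 3 libraries, against 48.6% of all thresholded summits, and 24 (80%, 62.7 to 90.5) in 2 or more, against 81.4%. Replicates 1, 2 and 3 met 22, 22 and 25 of them (73.3%, 73.3% and 83.3%), against 68.2%, 80.6% and 79.2% of all. With full lists, 21 (70%, 52.1 to 83.3) were met in all 3, against 81.8% of all, so sbb lay above the whole list by the strongest peaks and below it by the full lists, with the share over all inside the sbb interval both times. The full lists of replicates 1, 2 and 3 met 26, 25 and 28 (86.7%, 83.3% and 93.3%), against 90.5%, 94.7% and 94.6%. For the full list of replicate 2 the sbb interval (66.4 to 92.7) lay below the share over all. Support moved with strength. Of the 12 sbb summits among the strongest 1645 peaks 10 were met in all 3, where 90.2% of all such peaks were. Of the 8 among the next 1644 peaks 4 were, where 69.8% of all were. Of the 4 among the following 1645 peaks, 2 were, where 31.6% of all were. Of the 6 among the weakest 1644 none was, where 2.68% of all were. The thresholded set derives from the same libraries, so these shares are not independent of it.

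Where a summit had a counterpart in a library, the positions were close. The offset between the 2 summits had a median of 10 bp over 79 summit and library pairs at sbb, and of 13 bp over 18406 such pairs in the whole thresholded list. Of the 11 pairs at sbb with no counterpart within 100 bp, 10 had a library summit within 250 bp. An example, chosen after its values were seen, is the pair at 12.6 and 12.8 kb (18344709 and 18344480, signals 292 and 348), 229 bp apart in 1 interval. Replicate 1 listed both, at ranks 2966 and 1496. Replicates 2 and 3 each listed 1 summit between them, at ranks 2368 and 2190 and 102 to 127 bp from either, so the pair counted as not met in those libraries although a peak was there.

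The rank of a summit in the full lists moved together between libraries. Across the sbb summits met in both, Spearman's rho was 0.87 between replicates 1 and 2 (21 summits), 0.68 between 1 and 3 (24) and 0.84 between 2 and 3 (25). These are descriptions across summits of 1 gene in libraries that share a control alignment, and peaks missing from either list are left out. In the 21 summits with a rank in all 3 libraries, replicate 1 gave the lowest standing in 13, and replicate 3 the highest in 11. The largest SD of ranks, chosen after its values were seen, was at 18341298 (16.0 kb, signal 217), with ranks of 26508, 9498 and 3058. The summit at 18349549 (7.75 kb, signal 187) was the 1 member met among the strongest peaks of none, with ranks of 23268 and 24136 in replicates 2 and 3.

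**Figure D4:**
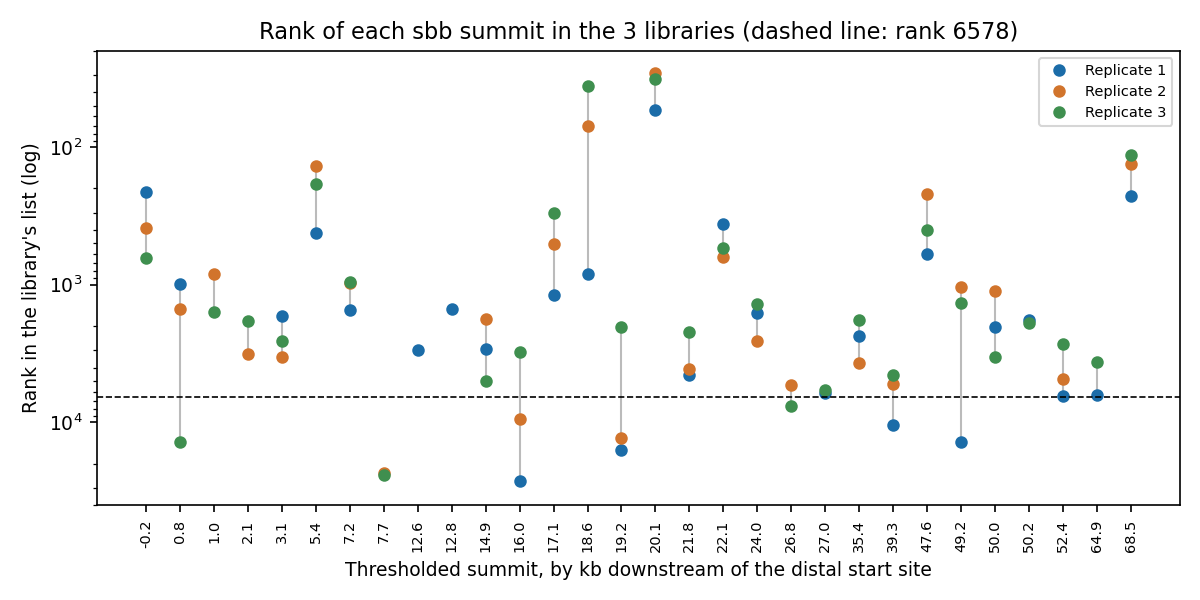
Rank by signal (log axis, strongest at the top) of the 30 thresholded sbb summits in replicates 1, 2 and 3, ordered from the distal TSS downstream; a missing point is a summit with no library summit within 100 bp. Summits such as those at 20.1 and 22.1 kb keep close ranks in the 3 libraries, while those at 0.8, 16.0 and 49.2 kb are spread widely.

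Both strands within 100 bp of each summit were searched for 5 short words, none of which contains another. The run AAAAAAA was present at 18 of the 30 sbb summits (60.0%, 42.3 to 75.4), at 55.6% of all thresholded summits and at 38.2% of the pooled summits below the threshold. GAGAG, the core of the element bound by the GAGA factor, was at 10 sbb summits (33.3%, 19.2 to 51.2) and at 31.2% of all. CACACA was at 6 (20%, against 25.8%), and CAGGTA, part of the Zelda motif, and TGACGT at 1 each (3.33%, against 4.14% and 5.06%). Each of the sbb intervals includes the share over all thresholded summits. Of the 5 strongest sbb summits, those at 18.6, 68.5, 5.44 and 47.6 kb held both AAAAAAA and GAGAG. The strongest, at 20.1 kb, held none of the 5 words, and the weakest sbb summit, at 19.2 kb, held both AAAAAAA and GAGAG. The share of all thresholded summits that hold both words was not computed, so nothing is read from these cases. The median GC content of the 201 bp windows was 41.3% at sbb and 39.8% over all thresholded peaks.

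Counted per gene, sbb was near the top of 13945 protein-coding genes but not alone there. With 10 kb on each side, CG1677 held 32 thresholded summits, sbb and Eip75B 30 each, kirre 28, psq 26, and pyd and hth 23 each. Of the tied pair pyd alone is described further. With the gene body alone, sbb came first, with 29. Eip75B encodes an ecdysone-induced nuclear receptor, kirre an adhesion protein of myoblast fusion, psq a BTB-domain chromatin factor and pyd a junction scaffold. The median gene held 1 summit, and 55.6% of genes held at least 1. Neighbouring and nested genes share summits under this count.

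By density, sbb lay just below psq and above the other 4 genes. It carried 3.03 summits per 10 kb, against 3.27 at psq, 2.24 at Eip75B, 2.21 at CG1677, 1.84 at pyd and 0.676 at kirre. Of the 307 genes of 50 kb or more, psq was first and sbb the second, and the median was 0.371. Among all 13945 protein-coding genes, most of them shorter, sbb ranked 165 by density, and the highest was 5.87. The strongest peaks of replicates 1, 2 and 3 gave 27, 34 and 30 summits at sbb (mean 30.3 ± 3.51, SD, n = 3), 21, 25 and 25 at psq (mean 23.7 ± 2.31) and 26, 27 and 26 at Eip75B (mean 26.3 ± 0.577). CG1677 had 26, 32 and 27, and kirre 28, 31 and 27. The gene was chosen for its count and the genes differ in length, so nothing is read from these differences. At sbb the highest signal was 1723, at psq 1298, at CG1677 1181 and at Eip75B 701. By median signal psq stood first with 384, then sbb with 336, Eip75B with 284, CG1677 with 278, kirre with 264 and pyd with 235. The median over all thresholded peaks was 262.

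**Figure D5:**
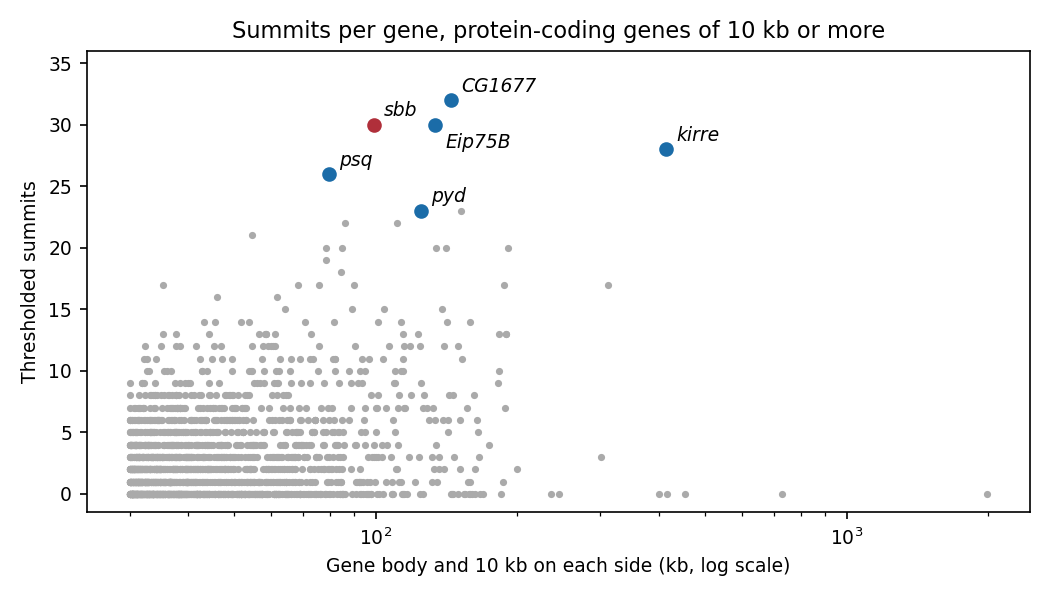
Number of thresholded summits in the gene body and 10 kb on each side against the length of that interval in kb (log axis), for protein-coding genes of 10 kb or more; sbb is red and 5 genes of next highest count over 100 kb from sbb are blue (pyd ties with hth, left grey). CG1677 lies above sbb and Eip75B level with it, and both span longer intervals.

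The 100 kb window that chose the gene, 18300001 to 18400000, held 33 thresholded summits. In the strongest peaks of the single libraries it held 29, 36 and 32 in replicates 1, 2 and 3, where it was the third, the first and the first of all windows.

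Genes known in Drosophila to act with or under sbb also carried peaks. Within 1 kb of a TSS, thresholded summits were found at 4 of 7 such genes and at 20.5% of all protein-coding genes, and all 7 had 1 in the body and 10 kb around it, as 55.6% of all protein-coding genes did. Gug, which encodes the partner corepressor Atrophin, had 10 summits in that wider interval, and its strongest near a TSS (3L, 8450141, signal 1062) ranked 222, 165 and 123 in replicates 1, 2 and 3. The BMP receptor gene tkv had 9 summits, with one (2L, 5237619, signal 1392, 257 bp from a TSS) at ranks of 602, 34 and 38, where replicate 1 stood apart.

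The runt gene (run), repressed by sbb in photoreceptors, had 3 summits, the strongest near a TSS (X, 20694171, signal 428) at ranks of 1349, 1704 and 1241, so the 3 libraries stood close together. The deacetylase gene HDAC1 had 4, but its summit near a TSS was weak (signal 184, 841 bp away) and was met only in replicate 2, at rank 4534. The gap genes Kr and kni and the receptor gene tll had no summit within 1 kb of a TSS and 4, 2 and 1 in the wider interval. The list is short and was chosen with results of these data known, so the counts are a description.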

How the data were processed

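The samples were 3 ChIP-seq libraries of sqz-GFP embryos. Per the deposited README text, peaks were called by the authors on dm6, for each library and for all 3 pooled, against 1 shared control alignment, and they derived the thresholded list from these by the irreproducible discovery rate. Neither aligner nor caller, version or cutoff is given in the sources used. In the deposited lists the signal value of a peak was used for ranking only. The deposited -log10 q value stood at its highest for 23 of the 30 sbb peaks (76.7%, 59.1 to 88.2) and for 61.4% of all thresholded peaks. It was not used to rank peaks. All 6578 thresholded peaks were the strongest of the pooled list.

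Summits (start plus offset, written from 1) were placed on Ensembl release 115 genes (BDGP 6.54) and Release 6 sequence, with 13945 protein-coding genes; RefSeq gives sbb the same ends. Gug was matched by its synonym. Introns are bases in no exon of any sbb transcript, numbered from the distal TSS. Scripts used Python 3.11.15, NumPy 2.4.6 and SciPy 1.17.1, and were tested on simulated data. With 1 group and a gene chosen by its peaks, no test was made. Wilson intervals (95%) cover counting error only and treat each summit as independent, although close summits need not be. Named summits are the 5 strongest, the weakest and those within 500 bp of a TSS; named genes are those holding or nearest to a summit, the 5 of next highest count over 100 kb away (1 of a tied pair), and the list of 7. Others were chosen after their values were seen. The members and lists were chosen with earlier results of these data known.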

Additional observations from a re-analysis of the deposited data

How the results depend on the processing

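The number of thresholded summits at sbb stayed between 20 and 32 under other flanks, RefSeq ends, merging of close summits and the stronger 3289 peaks, and fell to 16 (1.61 per 10 kb) for peaks met in all 3 libraries. With thresholded peaks met in both libraries that remain when 1 is left out, it was 17 to 20 (1.72 to 2.02 per 10 kb), lowest without replicate 3 (17) and next without replicate 2 (19); these sets hold fewer peaks by construction. The rank of sbb among genes went from 2 to 1 with flanks of 0, 1 or 20 kb and in replicates 2 and 3. Among thresholded peaks met in all 3 libraries, sbb and psq held 16 each, below Eip75B with 19 and kirre with 17. CG1677 held 13 such peaks and pyd 8. A TSS window of 1000 bp gave 5 summits in place of 3. The share met in all 3 libraries was 70% at 200 bp and also 70% with full lists, and it was 56.7% to 66.7% for any 2 libraries. With full lists 81.8% of all thresholded summits were met, so there the order against all reverses. No share over all is given for 200 bp or for 2 libraries. The median gap was 767 bp in the pooled list, 846.5, 798 and 857 bp in the full lists of replicates 1, 2 and 3, and 1837.5 bp in the strongest peaks of replicate 1, an alternative chosen after seeing the data; longer lists give shorter gaps by construction. With 250 bp on each side AAAAAAA was at 83.3% of sbb summits and 73.5% of all thresholded summits, and GAGAG at 63.3% and 59.6%. With 50 bp TGACGT was at 0% of sbb summits (0 to 11.4) and 2.40% of all. Of 58 alternative values 36 stayed within the spread or limit set for their result; the others are those given here. No paired analysis was possible because there is 1 group. Depth is unknown, so the lists cannot show what a deeper library would add.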

Other observations

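A few strong summits of single libraries at sbb have no thresholded summit within 500 bp. Of the strongest 6578 peaks, replicate 1 had 2 such summits at the locus out of 27, replicate 2 had 4 of 34 and replicate 3 had 3 of 30. The highest were at 54.4 kb in replicate 1 (rank 4773), at 10.5 kb in replicate 2 (rank 3325) and at 41.8 kb in replicate 3 (rank 4939), each in a different place. The share of such summits among all of the strongest 6578 peaks of each library is not given, so nothing is read from these counts. In the pooled list the peak at 18352060 (5.24 kb, signal 161, rank 6817), close to the fourth strongest summit, ranked 20602 in replicate 1 and 2876 in replicate 2 and had no counterpart within 100 bp in replicate 3.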
